A study of Rattus norvegicus with 6 samples.

Results

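Exonic circular RNAs (circRNAs) whose host gene gave rise to exactly 2 circRNAs were examined in the rat pineal gland, which secretes melatonin. All circRNAs of the 6 per-library tables were joined by their coordinates, and an exonic circRNA was kept where a single host gene was named and that host had 2 distinct circRNAs of any type in the joined list. The rule uses no read count directly, but a host's number of circRNAs is a count of detections, which depends on reads. The rule selected 353 of 2228 circRNAs (15.8%), or 26.4% of the 1336 exonic ones, from 196 hosts. Of these, 314 formed 157 pairs of exonic circRNAs, and 39 were the single exonic circRNA of a host whose other circRNA was intronic. Reading the rule so that only circRNAs naming the host alone count towards its 2 gave 352 of the same 353 circRNAs. The members lay on 21 chromosomes, 180 on the plus strand and 173 on the minus strand.

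The study compared pineal glands taken by day and by night from rats 8 weeks old, 1 library of total RNA per rat. The labels give no strain, genotype or sex, and no extraction or sequencing batch. The labels disagree on the hours. By sample title and time tag, rats C01 to C03 are the night animals (4:00) and C04 to C06 the day animals (16:00), but the treatment protocol has C01 to C03 in sunlight between 16:00 and 17:00 and C04 to C06 in darkness with red light between 4:00 and 5:00. Rat numbers therefore name the groups here (n = 3 each), every difference is that of rats C01 to C03 against rats C04 to C06, and none is assigned to day or night. The files give host genes by Ensembl ID, and 0 of the 196 matched the reference table at hand, so circRNAs are named by position. For the same reason the tissue label could not be checked against pineal markers.

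A circRNA forms when the spliceosome joins a downstream splice donor back to an upstream splice acceptor, which closes the exons between them into a loop without free ends. Such loops resist exonucleases and are abundant in neural tissue. One gene can yield several loops when the same acceptor is joined to different donors, when the same donor is joined to different acceptors, or when separate stretches of exons are closed. Each loop has 1 back-splice junction, so junction reads can be compared between circles without a correction for length.

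The tables held between 15506 and 22265 back-splice reads per library. Members took 2733, 2025 and 2366 of these in C01, C02 and C03, against 3123, 3191 and 2842 in C04, C05 and C06. As a share of all back-splice reads this was 13.2% ± 0.347 for C01 to C03, against 14.7% ± 0.394 for C04 to C06 (SD, n = 3 per group). The groups did not overlap in this share. The number of members listed was 136 ± 4.73 against 161 ± 2.08 (SD, n = 3 each), but as a share of all circRNAs listed it was 16.4% ± 0.817 against 16.8% ± 0.279, within the spread of C01 to C03. These values cover the whole set and are given without a test. Fewer cells carrying a circRNA and less of it per cell cannot be told apart in libraries of whole glands.

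Most members were seen in few rats. A total of 161 was listed in 1 library, 61 in 2, 34 in 3, 30 in 4, 14 in 5 and 53 in all 6. The 53 listed in every rat held 68.5% of all member reads. In a table, a circRNA is listed from 2 back-splice reads upwards, and the lowest circular share of any listing was 9.09%. The circular share is the percentage of reads at a circRNA's ends that is circular, with each back-splice read counted at both ends and set against the linear reads, which cross the same ends without a back-splice. A circRNA that is not listed has therefore not been measured as absent. The second caller's lists, which carry no linear reads, held 267 of the 353 members (75.6%), with 110 of the 161 seen in 1 main table and 44 of the 53 seen in all 6.

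The paired circles of a host mostly shared a splice site. Of the 157 exonic pairs, 59 (37.6%) had the same start and 46 (29.3%) the same end, so 105 (66.9%) shared an end and 52 (33.1%) shared neither. Among the 52, 39 pairs lay apart along the gene, 8 crossed and in 5 one circle lay inside the other. Both circRNAs of every pair were on the same strand. Read by strand, the shared site was on the acceptor side in 70 of the 105 pairs (66.7%) and on the donor side in 35 (33.3%). The pattern was a shared start on the plus strand (39 pairs, against 15 with a shared end) and a shared end on the minus strand (31 pairs, against 20 with a shared start).

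**Figure D1:**
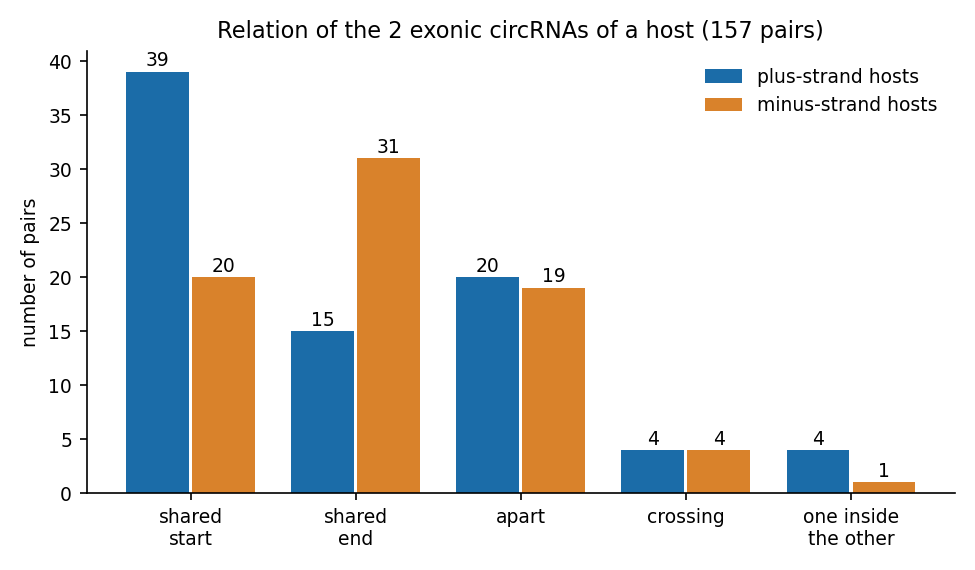
Number of host genes (y axis) by the relation of their 2 exonic circRNAs (x axis), in separate bars for plus-strand and minus-strand hosts. Shared starts lead on the plus strand (39 pairs) and shared ends on the minus strand (31 pairs), which are both the acceptor side.

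The share of pairs with a common end was 66.0% (66 of 100) where the second caller also held both circRNAs, 45 of them on the acceptor side and 21 on the donor side. It was 79.6% (39 of 49) where both circRNAs were listed in at least 2 libraries, 30 on the acceptor side and 9 on the donor side. For comparison, hosts with 3 to 5 circRNAs gave 298 within-host pairs, of which 153 (51.3%) shared an end, 100 of them (65.4%) on the acceptor side. Pairs of those hosts are not independent of each other, and hosts of 2 circRNAs were not tested against them. Pairs with a shared start held 33.3% of member reads and pairs with a shared end 37.4%, against 7.70% for pairs lying apart, 2.06% for crossing pairs and 0.792% for nested ones. A pair had a median of 29 reads over the 6 libraries where the start was shared, 55 where the end was shared, 16 where the circles lay apart, 40 where they crossed and 7 where they were nested.

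The pair with most reads shared its acceptor side on chromosome 2 (plus strand). The shorter circle, chr2:188301023-188309036, had 90, 86, 74, 106, 115 and 87 back-splice reads from C01 to C06. The longer circle, chr2:188301023-188330330, had 77, 58, 42, 81, 90 and 65. The shorter circle was ahead in each of the 6 rats, with 57.9% ± 3.44 of the pair's reads (SD, n = 6), and C05 was highest for both. A further pair on the acceptor side, on chromosome 17 (minus strand), was more uneven. Its shorter circle, chr17:27592203-27602936, had 97, 75, 83, 87, 81 and 97 reads and its longer one, chr17:27571479-27602936, had 50, 35, 34, 37, 36 and 32. The shorter circle held 69.9% ± 3.09 (SD, n = 6), the most uneven split among the 9 pairs listed together in all 6 rats.

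On chromosome 16 the order was the other way round. The shorter circle, chr16:54792659-54804208 on the plus strand, had 29, 26, 24, 41, 34 and 33 reads. The longer one, chr16:54792659-54826033, which starts at the same acceptor, had 49, 52, 47, 80, 46 and 56 reads and held 63.7% ± 3.48 of the pair (SD, n = 6). It was ahead in all 6 rats, and C04 was highest for both circles. On chromosome 1 (minus strand) the shorter circle, chr1:164046102-164064815, had 79, 62, 63, 101, 78 and 90 reads and the longer, chr1:164025518-164064815, had 58, 33, 46, 50, 57 and 39. The shorter held 62.5% ± 5.43 (SD, n = 6) and was ahead in every rat, and the second caller listed neither of these circles in any library. On chromosome 13 (minus strand) chr13:74512346-74520636 had 49, 38, 42, 38, 32 and 26 reads against 22, 21, 26, 30, 18 and 23 for chr13:74485162-74520636. The shorter circle was again ahead in every rat, with 61.4% ± 5.90 (SD, n = 6), and the second caller had no read of it.

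**Figure D2:**
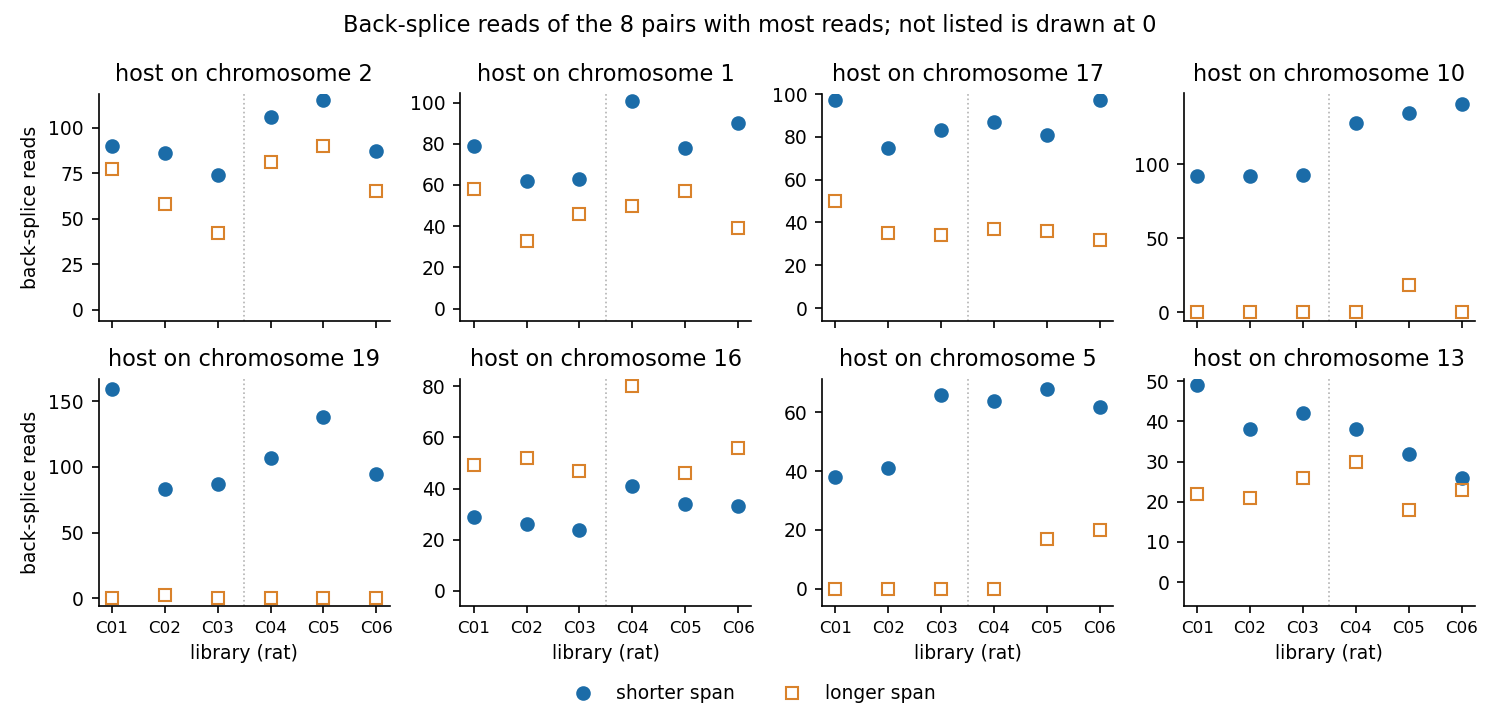
Back-splice reads (y axis, a scale of its own in each panel) in each library (x axis, with a dotted line between the groups of rats) for the 8 pairs with most reads, filled circles for the shorter and open squares for the longer circRNA. In 5 panels both circRNAs were listed in all 6 libraries with the same one ahead throughout, and in the panels for chromosomes 10, 19 and 5 the longer circRNA was listed in 1 or 2 libraries.

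In the other leading pairs the shorter circle had most of the listed reads, and the longer was listed in few libraries. The shorter circle on chromosome 10, chr10:16724062-16730140, had 92, 92, 93, 128, 135 and 141 reads, the highest mean level of any member listed in all 6 libraries, whereas the longer one with the same acceptor side, chr10:16706378-16730140, was listed only in C05, with 18 reads. The second caller counted 16, 4, 15, 6, 18 and 13 reads of that longer circle, so it had reads in every rat there. On chromosome 19 the circle chr19:25886356-25886887, a span of 532 bases, had 159, 83, 87, 107, 138 and 95 reads and a circular share of 74.9% ± 4.67 (SD, n = 6), the highest mean share among the members listed in every rat. The longer circle ending at the same place, chr19:25834566-25886887, was listed only in C02, with 3 reads. On chromosome 5 the circle chr5:36040325-36046665 had 38, 41, 66, 64, 68 and 62 reads, and its longer partner, chr5:36040325-36054615, had 17 in C05 and 20 in C06 and was not listed elsewhere. The second caller again had the partner in every rat, with 8, 8, 6, 8, 15 and 17 reads.

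Of the 35 pairs sharing the donor side, 1 was listed with both circRNAs in all 6 main tables, and of the 70 pairs sharing the acceptor side 7 were, a difference that was not tested. That donor pair lies on chromosome 13 (plus strand). Its shorter circle, chr13:73239822-73265813, had 23, 16, 28, 29, 40 and 26 reads, and its longer circle, chr13:73203187-73265813, had 22, 10, 19, 23, 18 and 13. The shorter was ahead in each rat, by 1 read in C01 and by 22 in C05. Over all pairs with a shared end the shorter circle had more reads in 44, the longer in 54, and 7 were tied. The shorter led in 32 and the longer in 34 of the pairs with a common acceptor side, and the shorter in 12 and the longer in 20 of those with a common donor side. The longer circle of a pair spanned a median of 2.55 times the shorter on the acceptor side and 2.58 times on the donor side.

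Of the pairs sharing neither end, those lying apart had a median gap of 35295 bases between the circles (688 to 489295, n = 39). The one pair of this kind listed in every rat was on chromosome 4 (minus strand). There chr4:168219620-168221653 had 31, 21, 20, 25, 25 and 26 reads and chr4:168296980-168297373, which lies 75326 bases away, had 9, 10, 16, 15, 14 and 10. The former held 66.6% ± 7.70 of the pair (SD, n = 6) and was ahead in every rat. The pair lying apart with most reads was on chromosome 14 (plus strand), where chr14:106492370-106500203 had 53, 22, 41, 47, 50 and 44 reads and chr14:106551725-106621252 had 16 in C02 only. Of the nested pairs, the one with most reads was on chromosome 11. Its outer circle, chr11:34060062-34073206, had 17, 7, 16, 14, 19 and 16 reads, and the inner one, chr11:34065892-34070810, was listed only in C01 with 14, while the second caller had 20, 0, 8, 4, 5 and 3 reads of it.

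Where a pair could be followed across rats, the circle with more reads overall was mostly ahead or level. That circle was picked by its reads summed over these same libraries, so its lead within them is partly built in. Both circRNAs were listed together at least once in 98 of the 157 pairs, in at least 2 libraries in 32, and in all 6 in 9 (5.73%). Over the 942 combinations of pair and library, both were listed in 182, one in 411 and neither in 349. In 21 of the 32 pairs seen together at least in 2 libraries, the circRNA with more reads overall was ahead or level in each of those libraries. In 11 it was behind at least once. Among the 9 pairs seen together in every rat, 7 kept the same leader in all 6. The share of the leading circle in these 9 had a median of 61.4% (56.2% to 69.9%), and its SD over the 6 rats a median of 5.90 percentage points (3.09 to 12.1).

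Among pairs listed together in every rat, the lead changed in the 2 most even ones. The next, chr2:188301023-188309036 and its longer partner (57.9% ± 3.44, SD, n = 6), kept its leader throughout. On chromosome 19 (minus strand) chr19:22143683-22179584 had 26, 20, 31, 44, 49 and 24 reads and chr19:22158621-22179584, with the same acceptor side, had 28, 15, 33, 17, 25 and 23. The longer circle held 57.2% ± 10.01 (SD, n = 6) and was ahead in 4 of 6 rats. On chromosome 2 chr2:94708675-94720889 had 2, 4, 2, 11, 10 and 11 reads and chr2:94716330-94720889 had 2, 3, 3, 5, 4 and 11. The longer circle held 56.2% ± 12.1 (SD, n = 6) and was ahead in 3 of 6 rats, at counts so low that a single read moves the split by several points. Over the 98 pairs listed together at least once, the median share of the circle with more reads overall was 56.7%. It was 70.8% over the 87 pairs with at least 10 reads in a library, in which a circle not listed counts as 0.

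The lengths behind the deposited TPM were far shorter than the genomic spans. The authors' deposited TPM values divide reads by a length, and that length could be recovered for 254 of the 353 members, in each case as a whole number of bases within 0.001. It had a median of 602.5 bases (193 to 7550), while the same 254 members spanned a median of 11449 bases of the genome. All 353 spanned a median of 12865 (243 to 154838). Whether the length is the sum of the exons was not tested. The length equalled the span in 19 members, as on chromosome 19 for chr19:25886356-25886887 with 532 bases. In 1 member, chr1:78518319-78522187, the length of 7550 bases exceeded the span of 3869. In all 60 pairs with a shared end and both lengths known, the circle of longer span also had the longer length, by a median of 239.5 bases for a median of 15583 bases of added span.

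**Figure D3:**
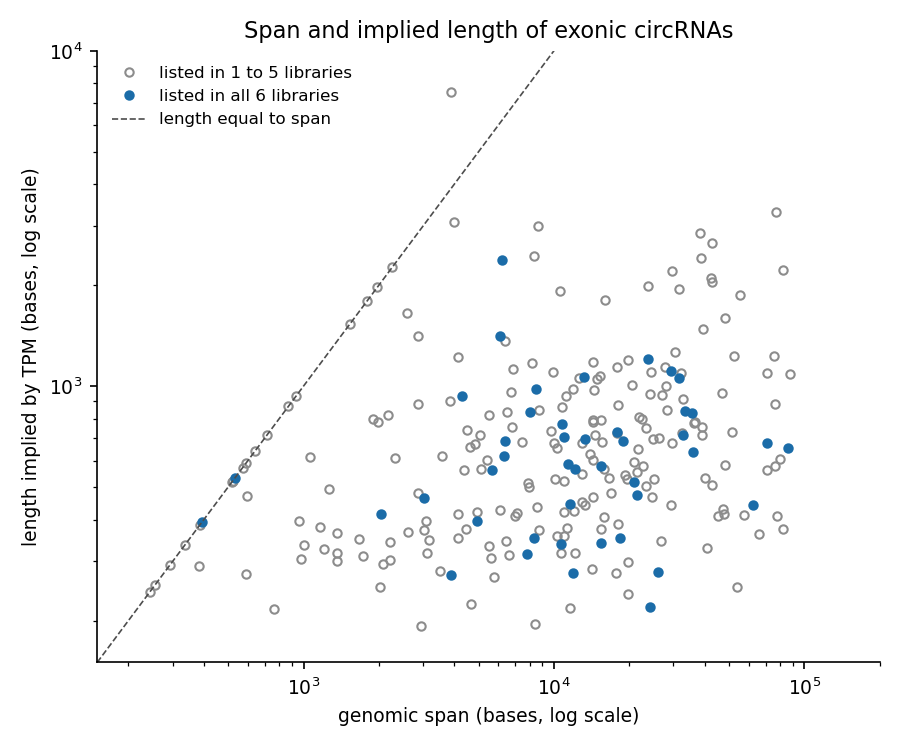
Length implied by the authors' TPM (y axis, bases, log scale) against genomic span (x axis, bases, log scale) for the 254 members with a length, filled where a circRNA was listed in all 6 libraries. The median implied length is 602.5 bases, 19 members sit on the dashed line of equal length and span, and 1 lies above it.

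Whether reads or TPM are used decides which circle of a pair leads in some hosts. By back-splice reads the shorter circle led in 25 of these 60 pairs, and by mean TPM in 39. In 18 it led by reads or by mean TPM but not by both, with a tie in reads counted as no lead. In the donor pair at chr1:253120469-253134791 and chr1:253120469-253148277, with implied lengths of 791 and 1144 bases, the shorter circle had 182 back-splice reads in all against 189 for the longer. Its mean TPM was 2054 against 1470. TPM also rests on the mean of both callers' reads and is above 0 only where both callers list a circRNA, so the reads behind both measures differ too. On the acceptor side at chr2:188301023-188309036 and chr2:188301023-188330330, with lengths of 838 and 1113 bases, the shorter circle led by back-splice reads in every rat.

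In the 39 hosts whose second circRNA was intronic, the exonic circle usually had more reads. It had more in 28, fewer in 8 and the same number in 3, with a median of 15 reads over the 6 libraries against 7 for the intronic partner. The exonic circles spanned a median of 6944 bases and the intronic ones 20725. In 15 hosts the pair shared an end, in 10 a start, in 10 they lay apart and in 4 the intronic circRNA lay around the exonic one. The largest exception was on chromosome 6 (minus strand), where the intronic chr6:76591791-76599536 had 522, 413, 444, 447, 521 and 448 reads. The exonic chr6:76487880-76492176 of the same host had 92, 49, 80, 51, 87 and 74, fewer in every rat.

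The intronic partner can be almost the same interval. On chromosome 12 (plus strand) the exonic chr12:25431710-25435591 had 41, 39, 34, 59, 62 and 61 reads. The intronic chr12:25431687-25435591 has the same end and a start a few bases upstream, and it was listed only in C01 with 14 and C03 with 13 reads. On chromosome 3 (plus strand) chr3:13510410-13522529 had 54, 41, 71, 57, 56 and 44 reads, and an intronic circRNA around it, chr3:13496853-13602354, was listed only in C03 with 10. On chromosome 2 (minus strand) chr2:140366057-140387503 had 41, 27, 48, 58, 42 and 65 reads and the intronic chr2:140357774-140387503 had 6, 8, 8, 25, 19 and 11. Both circRNAs of that host were listed in every rat, with the exonic one ahead in all 6.

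A member that was not listed in a library could have reads there by the second caller. Of the 2118 combinations of member and library, 893 were listed, and 609 of those (68.2%) had second-caller reads. The other 1225 were not listed, and 343 of those (28.0%) had them. Members listed in fewer libraries had lower circular shares and fewer reads. The median share was 22.3% for members listed in all 6 libraries, 13.6% for those listed in 3 to 5, 13.6% for those in 2 and 12.5% for those in 1. The median number of back-splice reads per listing library was 25.5, 8, 5.5 and 4 in the same order. Which of these moved the listing was not tested. There were 27 members with at least 20 reads in one library and no listing in another. In 17 of the 27 the second caller had reads in every library without a listing, in 6 it had none anywhere, and in 24 the lowest share listed was under 15%.

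Both circRNAs of a pair could be missing from a table. In 15 pairs both circRNAs were in all 6 second-caller lists, yet 11 of these were not together in all 6 main tables, and in 7 both circRNAs were missing from at least 1 table. At chr1:253120469-253134791 on the minus strand the main tables gave no listing in C01 and C03 and 37, 54, 38 and 53 reads in C02, C04, C05 and C06. The second caller gave 36, 31, 38, 21, 37 and 31. Its donor-side partner, chr1:253120469-253148277, had 45, 57, 49 and 38 reads in C01, C04, C05 and C06 with no listing in C02 and C03, against 37, 17, 29, 19, 55 and 32 by the second caller. The main tables thus placed both circles in every rat of C04 to C06 and gave gaps only among C01 to C03, whereas the second caller had at least 17 reads of each circle in each rat.

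**Figure D4:**
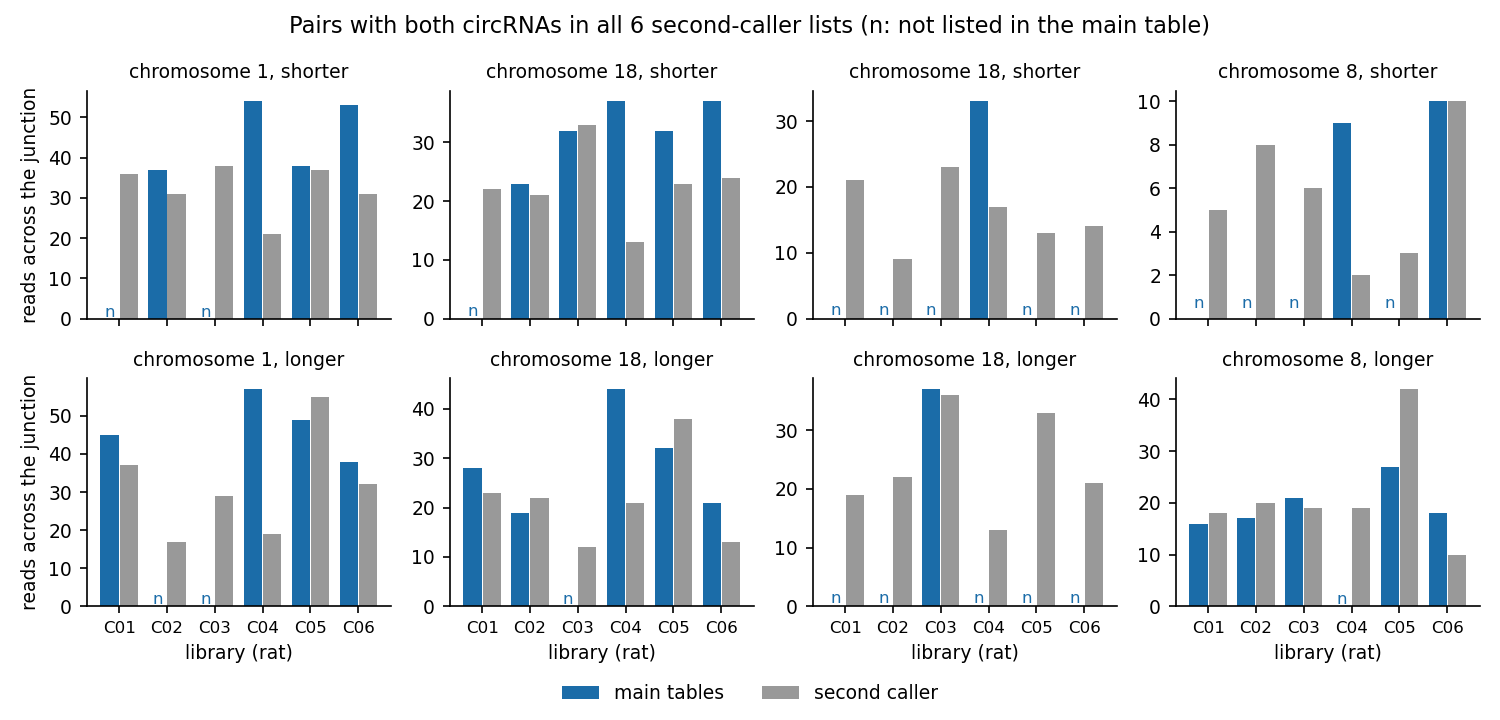
Reads across the junction (y axis, a scale of its own in each panel) in each library (x axis) by the main tables (blue) and the second caller (grey), for 4 pairs with both circRNAs in all 6 second-caller lists and both missing from some main table, shorter circle above and longer below. An n marks a library whose main table has no listing, and each such library has a grey bar.

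The callers also differed in a crossing pair on chromosome 18 (plus strand). There chr18:59190041-59209831 was listed only in C04, with 33 reads, against 21, 9, 23, 17, 13 and 14 by the second caller. Its partner, chr18:59207484-59283798, was listed only in C03, with 37 reads, against 19, 22, 36, 13, 33 and 21. The main tables never place these circles in the same rat and the second caller has both in all 6. Over the 157 pairs, 59 were never together in a main table, and 23 of those were together in a second-caller list. In the donor pair at chr18:13881301-13892278 and chr18:13881301-13923877 the former was missing from C01 only and the latter from C03 only, with 22 and 12 second-caller reads there.

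The comparison of back-splice reads between the groups of rats was made over the 772 circRNAs that had 2 or more reads in 3 or more libraries, and 131 of the 353 members were among them. A circRNA not listed entered as 0. By the quasi-likelihood test of edgeR, with p-values adjusted over all 772 (Benjamini-Hochberg), 1 of the 131 members (0.763%) passed the threshold of 0.05, and 1.55% of all circRNAs tested did. It was lower in C01 to C03, as were 1.17% of all, and no member passed as higher, compared with 0.389% of all. An unadjusted p under 0.05 was found for 11 members (8.40%) and for 9.97% of all. The groups did not overlap for 21 of the 131 (16.0%), compared with 19% of all. The median log2 difference was -0.34 over the 131 and -0.10 over all 772, with 85 members (64.9%) and 425 of all (55.1%) below 0.

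The member that passed was chr17:15998571-16003404. It was not listed in C01 to C03 and had 25, 40 and 15 reads in C04, C05 and C06 (adjusted p = 0.0493, edgeR). Linear reads across its ends numbered 246, 290 and 277 in these rats. The member reached the read minimum only through C04 to C06, so this p-value rests on the gaps in listing in C01 to C03. The second caller counted 4, 0, 2, 2, 10 and 6 reads from C01 to C06, and the groups overlapped. Tested on the second caller's counts over the same circRNAs its adjusted p was 0.888, and with RLE normalization of the main counts it was 0.0605. Without C01, C02 or C03 it was 0.0788, 0.0796 or 0.051 (edgeR), and without C04, C05 or C06 the member fell below the read minimum. Its donor-side partner, chr17:16002402-16003404, was listed in C04 only, with 22 reads, while the second caller had 13, 4, 8, 12, 22 and 7. No fold change is given for circRNAs not listed in a whole group, since that is not a measured 0.

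Complete separation of the groups by listing was seen for 6 members. In all of C04 to C06 and none of C01 to C03 there were 4 members, compared with 1.57% of all circRNAs, and the reverse held for 2, compared with 0.583% of all. Among the 4 were chr5:22717443-22738059 with 9, 6 and 8 reads and no second-caller read, and chr19:56720223-56721427 with 8, 6 and 5. The second caller had 6, 4, 4, 7, 7 and 4 reads of the latter, with overlapping groups. The 2 in C01 to C03 were chr8:72231561-72261300 with 6, 5 and 5 reads and chr5:135596270-135608345 with 6, 3 and 5. Each circle named here had an adjusted p of 0.222 (edgeR) and reached the read minimum only through the group that lists it. On the second caller's counts over the circRNAs of the main test, the adjusted p was 0.994 for chr19:56720223-56721427 and 0.888 for chr5:135596270-135608345 (edgeR). There chr8:72231561-72261300 did not pass either. On the authors' TPM values, with 0.760 added, the adjusted p was 0.00114 for chr19:56720223-56721427 and 0.00121 for chr5:135596270-135608345 (limma). TPM is 0 wherever a circRNA is not listed, so these p-values rest on the same gaps in listing. Both circles passed the TPM filter only through the group that lists them. Without that filter, and with 1 added, the adjusted p was 0.0474 and 0.0867 (limma).

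Members listed in both groups did not pass, and the nearest are given by their values. The longer circle on chromosome 3, chr3:97727432-97813284, had 24, 22, 26, 55, 60 and 35 reads from C01 to C06. In CPM (normalised back-splice counts scaled to a common library total) this was 1450 ± 133 against 2729 ± 578 (SD, n = 3 each), without overlap, a log2 difference of -0.91 (SE 0.23, adjusted p = 0.194, edgeR). Tested only among circRNAs listed in all 6 libraries, its adjusted p was 0.0384 (edgeR). Its acceptor-side partner, chr3:97727432-97774745, had 23, 15, 21, 30 and 25 reads and was missing from C02. For chr10:16724062-16730140 the levels were 5591 ± 540 and 7442 ± 756 CPM (SD, n = 3 each), a log2 difference of -0.41 (SE 0.12, adjusted p = 0.222, edgeR). In the other direction chr13:74512346-74520636 had a log2 difference of 0.55 (SE 0.20, adjusted p = 0.308, edgeR), with 2582 ± 84.1 against 1758 ± 291 (SD, n = 3 each) and no overlap. For chr18:15480332-15490831, with 27, 25, 36, 18, 26 and 17 reads, and chr20:7363740-7372069, with 39, 28, 30, 32, 22 and 22, the log2 differences were 0.67 and 0.47 (adjusted p = 0.578 and 0.86, edgeR).

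No host of 2 circRNAs passed the test for a change in the balance between them. Of 74 hosts with at least 2 circRNAs past the read minimum, 25 were hosts of 2 circRNAs, 22 of them with both exonic. By edgeR's test of differential usage none of the 25 passed, whereas 5.41% of the 74 did, and 1 of the 25 had an unadjusted p under 0.05 against 9.46% of all. By limma-voom's usage test none of these hosts passed either. That host, on chromosome 7, had exonic reads of chr7:109055032-109071915 in C02 (6), C04 (6), C05 (5) and C06 (5) and reads of the intronic chr7:109159849-109171920 in C04 (8), C05 (10) and C06 (10) only (adjusted p = 0.296, edgeR usage test). The smallest adjusted p of an exonic pair was 0.95, for the donor pair chr9:84024085-84025248, with 8, 5 and 3 reads in C01, C02 and C06 and no other listing, and chr9:84024085-84035432, with 13, 13, 10, 18, 29 and 9.

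Further hosts near the top of the usage test had adjusted p-values of 0.95 and above. For chr19:22143683-22179584 and its partner the adjusted p was 0.95 (edgeR usage test). The longer circle had more reads than the shorter in C04, C05 and C06 but only in C02 among C01 to C03. On chromosome 3 the crossing circles chr3:112752502-112762808 (15, 6, 7, 8, 0 and 7 reads, where 0 is not listed) and chr3:112713524-112752649 (0, 9, 0, 14, 10 and 11) had an adjusted p of 0.983 (edgeR usage test), as did the host of chr2:140366057-140387503. For the crossing pair the adjusted p was 0.118 by limma-voom and 0.0767 without C02 (edgeR usage test). These tests cover only hosts with both circRNAs past the read minimum, so most of the 196 hosts were not tested for usage.

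The circular share could be compared for the 53 members listed in every rat, among 273 such circRNAs. By limma with a trend, on the log2 ratio of back-splice to linear reads, 1 of the 53 (1.89%) passed and 2.2% of all 273 did. It was lower in C01 to C03, as were 1.47% of all, and no member passed as higher, compared with 0.733% of all. The groups did not overlap for 14 members (26.4%), compared with 26.7% of all, and 13 (24.5%) had an unadjusted p under 0.05, compared with 20.5%. The median log2 difference was -0.28 over the 53 and -0.20 over the 273, with 36 members (67.9%) and 63.4% of all below 0.

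The member that passed was chr8:49754717-49757732, whose shares were 32.7%, 21.1% and 17.1% in C01 to C03 but 53.3%, 50% and 46.2% in the rats C04 to C06. The means were 23.6% ± 8.07 and 49.8% ± 3.59 (SD, n = 3 each), a log2 difference of -1.68 in the ratio of back-splice to linear reads (SE 0.32, adjusted p = 0.033, limma). Its back-splice reads were 8, 4, 3, 4, 3 and 6, which overlap between the groups. Its linear reads were 33, 30 and 29 against 7, 6 and 14, which do not. The call rests on these few reads and was lost without C02, C03, C04, C05 or C06, with log2 differences of -1.60, -1.44, -1.58, -1.66 and -1.79.

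The next members showed shares that were lower in C01 to C03 but missed the threshold as tested. For chr3:97727432-97813284 the shares were 13.0%, 15.9% and 18.3% against 32.8%, 32.6% and 26.1% (log2 difference -1.22, adjusted p = 0.0521, limma), with linear reads of 320, 233, 232, 225, 248 and 198. For chr2:94708675-94720889 they were 10%, 26.7% and 13.8% against 45.8%, 37.7% and 53.7% (log2 difference -1.97, adjusted p = 0.0521, limma). Neither circle's groups overlapped. With 1 in place of 0.5 added to the reads both passed (adjusted p = 0.0471 each, limma), and without C02 chr2:94708675-94720889 passed too (adjusted p = 0.0322, limma). In the other direction the log2 differences were 0.70 for chr5:79280979-79291689, 0.46 for chr20:7363740-7372069 and 0.40 for chr13:74512346-74520636 (adjusted p = 0.182, 0.229 and 0.423, limma).

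Linear reads at the ends of circles passed the test in more members. By edgeR's quasi-likelihood test 11 of the 53 members (20.8%) passed, 5 higher and 6 lower in C01 to C03, at 7 hosts. Over all 273 circRNAs 31.9% passed, 18.7% higher and 13.2% lower. The groups did not overlap for 11 members (20.8%), compared with 31.5% of all. Circles of a pair with a common end share the linear reads of that end and are not separate observations.

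**Figure D5:**
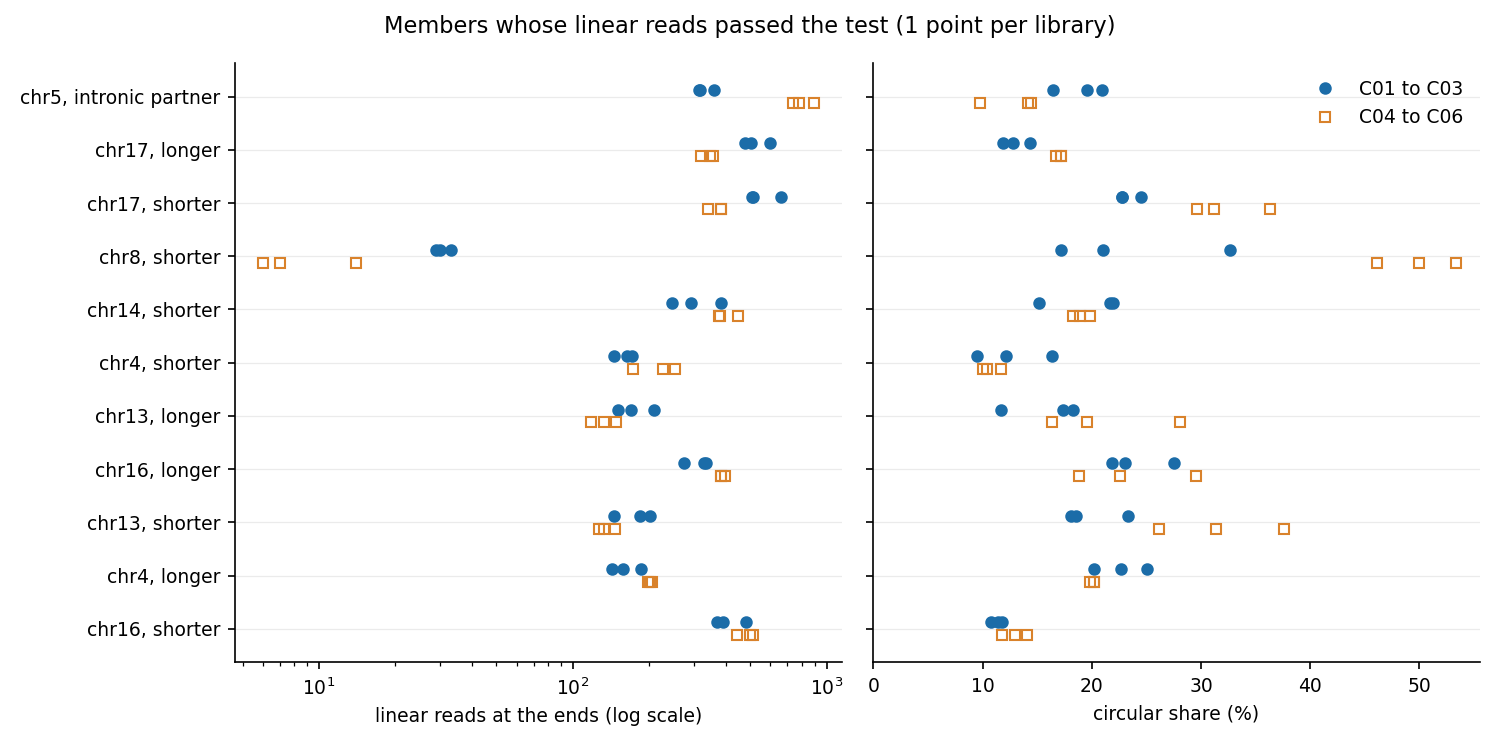
Linear reads at the ends (left, log scale) and circular share in percent (right) of the 11 members whose linear reads passed the test (y axis, by chromosome and place in the pair), 1 point per library, filled for C01 to C03 and open for C04 to C06. The member on chromosome 5, whose host has an intronic second circRNA, has the most negative log2 difference in linear reads (-1.27), and that on chromosome 8 the most positive (1.76).

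The smallest p was at chr5:79280979-79291689 on the minus strand. Its linear reads were 361, 314 and 318 in C01 to C03 but 777, 891 and 738 in the rats C04 to C06, a log2 difference of -1.27 (SE 0.08, adjusted p = 7.37e-35, edgeR). Its back-splice reads, 44, 31 and 42 against 64, 75 and 40, overlapped between the groups (adjusted p = 0.663, edgeR). The intronic partner with the same start, chr5:79280979-79294041, was listed only in C01 with 10 and C03 with 11 reads. Whether its listing goes with the linear reads was not tested.

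At the chromosome 17 pair the linear reads went the other way. The longer circle chr17:27571479-27602936 had 597, 477 and 505 linear reads against 357, 347 and 319, a log2 difference of 0.63 (SE 0.09, adjusted p = 1.75e-10, edgeR). The shorter circle chr17:27592203-27602936 had 658, 509 and 511 against 384, 384 and 340, a log2 difference of 0.60 (SE 0.08, adjusted p = 2.72e-10, edgeR). Neither set of groups overlapped. The circular share of the shorter circle was 22.8%, 22.8% and 24.5% against 31.2%, 29.7% and 36.3% (adjusted p = 0.182, limma), while its back-splice reads, given above, were close in level: 5104 ± 174 and 4896 ± 772 CPM (SD, n = 3 each). At chr8:49754717-49757732 the log2 difference in linear reads was 1.76 (SE 0.36, adjusted p = 2.4e-05, edgeR).

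Smaller differences passed at the remaining 4 hosts. Linear reads were lower in C01 to C03 at chr14:106492370-106500203 (log2 difference -0.39, adjusted p = 0.000362, edgeR), where the raw reads of the groups overlapped. They were lower at both chromosome 4 circles, chr4:168296980-168297373 (-0.43, adjusted p = 0.00107, edgeR) and chr4:168219620-168221653 (-0.32, adjusted p = 0.0189, edgeR), which lie apart and share no end. They were also lower at chr16:54792659-54826033 (-0.31, adjusted p = 0.00718, edgeR) and chr16:54792659-54804208 (-0.23, adjusted p = 0.0261, edgeR). At the chromosome 13 donor pair they were higher, with log2 differences of 0.41 for chr13:73203187-73265813 and 0.38 for chr13:73239822-73265813 (adjusted p = 0.00581 and 0.0106, edgeR). The linear reads of chr4:168296980-168297373 were 171, 145, 164, 226, 252 and 172 from C01 to C06, and those of chr4:168219620-168221653 were 185, 143, 158, 198, 202 and 205, without overlap for either. The groups overlapped for chr16:54792659-54804208 and chr13:73239822-73265813. Several of these calls lay near the threshold, and leaving out a rat ended them with the direction kept. The call was lost for chr4:168219620-168221653 without C01, C02, C03 or C06 (log2 differences -0.304, -0.308, -0.322 and -0.275) and for chr16:54792659-54804208 without C03, C04 or C05 (-0.173, -0.210 and -0.235). It was lost for chr16:54792659-54826033 without C01 or C06 (-0.228 and -0.281), for chr13:73239822-73265813 without C03, C04 or C05 (0.327, 0.327 and 0.319) and for chr13:73203187-73265813 without C04 (0.323). In each of these 4 hosts the circles' own back-splice reads did not pass the test.

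Set beside exonic circRNAs of other hosts, the members lay between those of hosts with 1 circRNA and those of hosts with 3 to 5 in how often they were listed and in their span. Listed in all 6 libraries were 15.01% of the 353, 8.87% of the 631 from hosts with 1 and 16.4% of the 269 from hosts with 3 to 5. Listed in 1 library only were 45.6%, 48.5% and 42.4%. The second caller held 75.6%, 78.1% and 78.1%. The median span was 12865 bases, against 7739 and 19972. The median implied length was 602.5 bases, against 462.5 and 499, so in this measure the members were highest. A host's number of circRNAs is itself a count of detections, and these differences are described without a test.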

How the data were processed

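Tables in the column format of the caller CIRI, deposited per library, give counts of back-splice and linear reads and the circular fraction, per the file headers. Candidate lists in the column format of find_circ give the second caller's counts, deposited by the authors with scores; their starts were raised by 1. The authors also deposited TPM values; division of the mean of both callers' reads by these, on the scale of intergenic circRNAs, gave the implied lengths. Versions of callers and aligner: not given in the sources used here. DESeq and mm9, a mouse build, are named in the submitters' processing notes, but the gene IDs are of rat, so the build is uncertain; coordinates are the files' own, and no sequence was read.

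Members and lists were chosen with earlier results of these data known. Counts were fitted on whole tables with edgeR 4.0.16 (TMM, quasi-likelihood; usage by diffSpliceDGE), shares with limma 3.58.1 on log2 ratios (0.5 added to each count), adjusted by Benjamini-Hochberg (threshold 0.05). p-values measure the spread between 3 rats a group. Scripts were checked on simulated data that did not model gaps in listing, and for the circular share without the trend. Alternatives were RLE, DESeq2 1.42.0, limma-voom, other filters, the second caller, TPM (limma on log2 of TPM plus 0.760 or 1) and leaving out each rat. Named were every member past a threshold, the 8 pairs with most reads and the 3 of each geometry, 5 members per direction by p (back-splice), 3 per direction (share, linear), the 5 hosts of smallest usage p, and the 3 most even and most uneven pairs; others were chosen after their values were seen. Labels give no batch, and all read names carry the same flow-cell lane.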

Additional observations from a re-analysis of the deposited data

Results flagged for a closer look

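The second caller listed 295 junctions that share an end with a member and are absent from the main tables, at 110 of the 196 hosts. Of these, 6 were in all 6 of its lists, a signal outside the main measurement. In the host of the crossing pair on chromosome 18, chr18:59190041-59192425 had 91 reads over the 6 libraries (12, 18, 12, 11, 27 and 11 from C01 to C06), chr18:59207484-59245202 had 57 (5, 7, 13, 6, 18 and 8) and chr18:59190041-59245202 had 22 (4, 6, 3, 4, 2 and 3). By these lists that host gave more than the 2 circRNAs that the main tables hold.

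At the donor pair on chromosome 1, chr1:253147925-253148277 had 78 reads (22, 15, 10, 7, 8 and 16). On chromosome 5, chr5:169665552-169689469 had 44 (7, 5, 2, 7, 15 and 8), and on chromosome 1, chr1:102638885-102660697 had 35 (5, 5, 8, 2, 7 and 8). Membership therefore depends on the caller at these hosts. The groups hold 3 rats each, and no test for a single outlying rat was made.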

How the results depend on the processing

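The count of members called for back-splice reads was 1, and it was 1 with DESeq2 (28 of all 772 circRNAs called), with a minimum of 5 reads and over circRNAs listed in all 6 libraries (there chr3:97727432-97813284, adjusted p = 0.0384), 0 with RLE, 0 with the second caller (2 of 2208) and 0 with it over the circRNAs of the main test, 8 with no filter (41 of 2228), 5 and 5 with TPM at either pseudocount (31 of 494 with 1 added) and 2 with TPM unfiltered. Leaving out 1 rat at a time gave 0 to 1. The member at chr17:15998571-16003404 had adjusted p from 0.051 to 0.0796 without a rat of C01 to C03, and without C04, C05 or C06 it fell below the read minimum. The calls without C01 and without C02 were of chr1:253120469-253148277 (0.0141) and chr1:253120469-253134791 (0.0205). Each of these circles was then listed in no remaining rat of C01 to C03, so the calls rest on gaps in listing. The second caller had 17 and 29 reads of the former in C02 and C03. It had 36 and 38 reads of the latter in C01 and C03.

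The circular-share count was 1 in the main test (1.89%, compared with 2.2% of all 273 circRNAs). It became 3 with a pseudocount of 1 (chr2:94708675-94720889 and chr3:97727432-97813284 were added), stayed 1 without a trend, and ranged from 0 to 1 without 1 rat. Linear reads gave 11 in the main test (20.8%, compared with 31.9% of all 273 circRNAs). They gave 11 with RLE, 10 with DESeq2 and 8 to 11 without 1 rat. For these alternatives, and for back-splice settings printed without one, the share over all circRNAs is not given. Usage gave 0 under every alternative run. Pairs sharing an end were 66.9%, the same when ends within 10 bases counted as shared, and 79.6% with both circRNAs listed in at least 2 libraries. The split was 56.7%, and 70.8% when libraries with at least 10 reads for the pair were used and a circle not listed there counted as 0, which changes both the minimum and the libraries. No log2 difference of a named circRNA listed in both groups changed sign under these alternatives. Within pairs, the shorter circle led by TPM or by reads but not by both in 18 of 60, a tie in reads counting as no lead. Restriction to circRNAs listed in all 6 libraries, the second caller over the main test's circRNAs, unfiltered TPM and the narrower reading of the rule were added after the data were seen. No paired analysis was possible because the groups share no rat number. Of 353 members, 131 had the listed reads for a test; depth and the main tables' listing cannot be told apart here. Counts of 2 to 10 reads carry a wide counting error, and PCR copies were not marked.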
